A study of Caenorhabditis elegans with 9 samples.

Results

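The 10 genes described here encode proteins of germ granules, regulators of germ cell fate and structural proteins of meiotic chromosomes: *pgl-1*, *pgl-3*, *glh-1*, *cgh-1*, *glp-1*, *gld-1*, *htp-3*, *him-3*, *syp-1* and *syp-2*. They were chosen by name, for what their proteins do in the *C. elegans* germline, but with earlier results of these data known. Their symbols were mapped to the gene identifiers of a table of 14218 genes. All 10 were found, and all 10 were among the 11287 genes that reached at least 5 ppm in at least 1 library and were therefore tested. A level in ppm is a gene's share of the summed length-normalised levels of a library, scaled to a sum of 1000000.

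RNA was sequenced from populations of whole animals at the last larval stage (L4), about 20000 animals per sample, grown at 20 °C on *E. coli* OP50 plates, in 3 genotypes with 3 replicates each. WT was strain N2. The *atf-4(tm4397)* animals (strain LD1325) carry a deletion in the gene for ATF-4, a transcription factor of the integrated stress response. ATF-4OE animals carry ldIs119, a transgene of *atf-4* genomic sequence fused to GFP under the *atf-4* promoter with the *unc-54* 3′UTR, together with the roller marker *rol-6(su1006)*; it was a single line in which an array had been integrated by UV and then outcrossed to N2, so effects of the transgene, of the marker and of that insertion cannot be told apart. The labels call the replicates independent biological ones and state that the strains of one replicate were cultured together.

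In the hermaphrodite gonad, germ cells at the distal end divide under the control of the Notch receptor GLP-1, then enter meiosis as they move away from it. Perinuclear P granules, which hold mRNA and small-RNA factors, mark germ cells throughout this path. As chromosomes pair, HORMA-domain proteins build an axis along each of them, and the synaptonemal complex joins the paired axes. At the L4 stage this tissue is expanding, and its first mature gametes are sperm.

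All 10 genes are placed on build WBcel235 by Ensembl. *glh-1* lies on chromosome I at 6854478 to 6857536, *gld-1* at 7695681 to 7698222 and *htp-3* at 4827072 to 4829791 of the same chromosome. *cgh-1* is on chromosome III at 7495320 to 7497832 and *glp-1* at 9092241 to 9099698. *pgl-3* (4755979 to 4758587), *syp-2* (5536487 to 5537717) and *syp-1* (16404274 to 16407701) are on chromosome V. *pgl-1* (6974441 to 6977318, minus strand) and *him-3* (6977508 to 6978765, plus strand) are divergent neighbours on chromosome IV with 189 bases between them. *syp-1* shares 1075 bases with F13A7.14, a protein-coding gene of the same strand, so its values are uncertain. *cgh-1* shares 78 bases with a snoRNA gene, and *him-3* and *glp-1* share 24 and 18 bases with genes of the opposite strand. How reads common to *glh-1* and its relative *glh-2*, or to *pgl-1* and *pgl-3*, were assigned is not given in the sources used here.

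The libraries held an estimated 23900000 to 35200000 reads, and a gene of the set about 101 (*syp-2*, lowest) to 10931 (*glh-1*, highest) reads in a library. The column names of the deposited RPKM sheet and of its centred and scaled copy disagree: the 9 libraries matched pairwise by value, but only 3 carried the same genotype in both sheets. The names of the scaled sheet were used. Under them *atf-4* itself, measured over its genomic locus and transgene together, stood at 199.6, 167.7 and 214.5 ppm in WT, at 3.81, 3.69 and 9.31 ppm in *atf-4(tm4397)* and at 5289, 4184 and 6845 ppm in ATF-4OE. *rol-6*, the marker carried by the array, stood at 572.5 to 962.1 ppm in WT, 655.3 to 1379 ppm in the mutant and 3019 to 4448 ppm in ATF-4OE. Both genes therefore followed those labels.

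In WT the set ran from 6.25 to 83.1 ppm in level per length (mean, n = 3). *glh-1*, a DEAD-box helicase of the Vasa family that sits in P granules, was highest at 83.1 ± 4.69 ppm, and 88.8% of all genes were below it. *cgh-1*, a DDX6-family helicase that stores and protects mRNA in germ cells, followed at 57.3 ppm, and *pgl-1*, a scaffold protein of P granules, at 31.4 ± 4.41 ppm. These 3 levels did not overlap with each other or with the next gene over the WT libraries. *gld-1* (16.9 ppm), *him-3* (13.7 ppm), *pgl-3* (10.1 ppm), *glp-1* (8.01 ppm), *syp-2* (7.97 ppm), *syp-1* (7.36 ppm) and *htp-3* (6.25 ppm) came after them, and each of these overlapped its neighbour in the order.

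**Figure D1:**
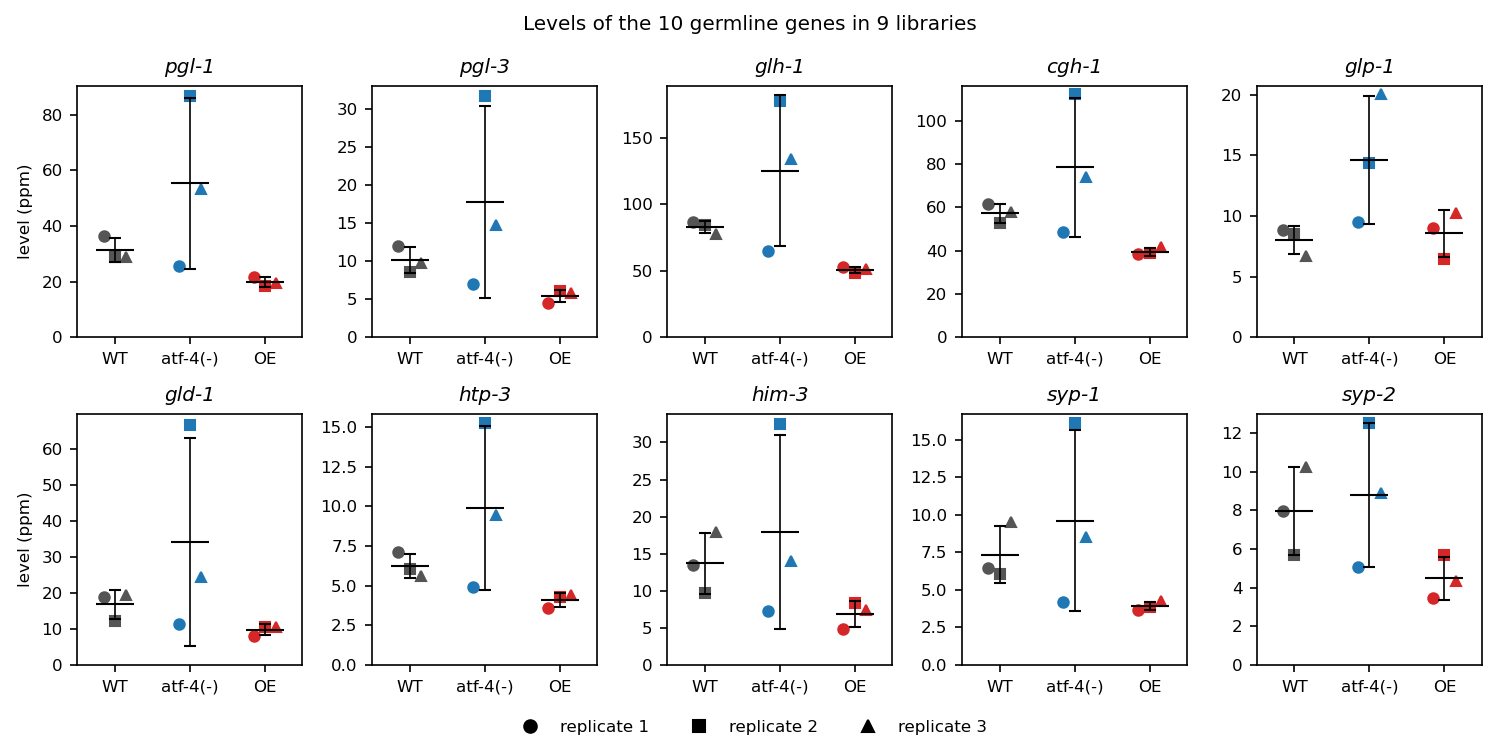
Level of each of the 10 genes in ppm (vertical axis, linear) in the 3 libraries of WT, *atf-4(tm4397)* (written atf-4(-)) and ATF-4OE (written OE). Symbols mark the replicate number and bars the mean ± SD (n = 3). For 9 genes the ATF-4OE points lie below all WT points, and the second mutant library is the highest of the 9 libraries for the same 9 genes; *glp-1* is the exception to both.

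ATF-4OE was compared with WT to ask what differs in animals with raised *atf-4* mRNA levels, which also carry the roller marker and the insertion. Every ATF-4OE library lay below every WT library for 9 of the 10 genes, all but *glp-1*, where 23% of all genes tested were lower without overlap. For these 9 genes the ATF-4OE mean was 0.503 (*him-3*) to 0.689 (*cgh-1*) of the WT mean. None of the 10 passed the planned test (limma on all 9 libraries, adjusted p under 0.1; 14.4% of all genes passed as lower and 22.1% as higher), with adjusted p from 0.114 to 0.847 and 2 genes at an unadjusted p under 0.05. In a fit of the 6 WT and ATF-4OE libraries alone the same 9 genes passed as lower, with adjusted p from 0.00345 to 0.061, where 17.6% of all genes passed as lower. In bulk RNA of whole animals, fewer germ cells and less of an mRNA per germ cell cannot be told apart.

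The difference between the fits lies in the spread, since the fold changes are identical. Across the 10 genes the coefficient of variation was 5.65 to 29.9% in WT, 4.42 to 26.02% in ATF-4OE and 36.1 to 84.6% in *atf-4(tm4397)*. The SE of the log2 fold change had a median of 0.33 over the set with all 9 libraries and of 0.175 with the 6 of WT and ATF-4OE. Its median over all genes tested was 0.169 in the fit of 9. Without the second mutant library 8 of the 10 passed as lower than WT (all but *glp-1* and *htp-3*), and without the first mutant library 8 passed (all but *glp-1* and *gld-1*), where 14.3% and 17.1% of all genes passed as lower. 1 gene, *syp-2*, passed without the second WT library (13.3% of all genes).

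Of the P granule scaffold genes, *pgl-1* was at 36.4, 28.8 and 28.9 ppm in WT and at 21.7, 18.3 and 19.6 ppm in ATF-4OE, with no overlap. Its log2 fold change, on the log2(ppm + 1) scale used throughout, was −0.63 ± 0.35 (SE), with a limma adjusted p of 0.214. Its paralogue *pgl-3*, whose protein assembles with PGL-1, was at 12.1, 8.61 and 9.75 ppm in WT and at 4.50, 6.03 and 5.77 ppm in ATF-4OE. The log2 fold change of *pgl-3* was −0.79 ± 0.42 (adjusted p of 0.19 in limma). The groups of *pgl-3* did not overlap either. For both genes, any pairing of libraries, also that by replicate number, therefore gives the lower value to ATF-4OE.

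The helicase genes had the tightest groups. *glh-1* was at 86.8, 84.6 and 77.8 ppm in WT and at 52.7, 48.3 and 51.5 ppm in ATF-4OE. The gap between its groups exceeded the range within either, and the log2 fold change was −0.70 ± 0.30 (limma adjusted p of 0.114, the lowest of the set). *cgh-1* was at 61.3, 52.6 and 57.9 ppm in WT and at 38.2, 38.7 and 41.5 ppm in ATF-4OE, with a log2 fold change of −0.52 ± 0.25 (adjusted p of 0.144 in limma).

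The pair of cell fate regulators parted. *glp-1*, whose product keeps distal germ cells in mitosis, was at 8.81, 8.54 and 6.69 ppm in WT and at 9.002, 6.46 and 10.3 ppm in ATF-4OE. Its groups overlapped and the log2 fold change was 0.07 ± 0.25 (limma adjusted p of 0.847), with a sign that turned when the third WT or the third ATF-4OE library was left out (−0.04 and −0.05). *gld-1*, a KH-domain translational repressor that promotes meiotic entry and oocyte development, was at 18.8, 12.3 and 19.5 ppm in WT and at 7.97, 10.6 and 10.7 ppm in ATF-4OE. Its log2 fold change was −0.72 ± 0.50 (adjusted p of 0.32 in limma), with the lowest WT and highest ATF-4OE libraries close together.

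The chromosome axis genes followed the granule genes. *htp-3*, which is needed to load the other HORMA-domain proteins, was at 7.10, 6.06 and 5.59 ppm in WT and at 3.58, 4.25 and 4.38 ppm in ATF-4OE (log2 fold change −0.51 ± 0.31, limma adjusted p of 0.252). *him-3*, a HORMA-domain axis protein needed for pairing and synapsis, was at 13.5, 9.69 and 17.9 ppm in WT and at 4.90, 8.37 and 7.40 ppm in ATF-4OE. Its log2 fold change of −0.89 ± 0.45 was the farthest from 0 of the set in this comparison (adjusted p of 0.174 in limma), and its WT libraries were the more widely spread.

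The central-region genes of the synaptonemal complex were low throughout. *syp-1*, which encodes a transverse element, was at 6.46, 6.06 and 9.56 ppm in WT and at 3.67, 3.89 and 4.25 ppm in ATF-4OE (log2 fold change −0.74 ± 0.37, limma adjusted p of 0.171). *syp-2*, whose product works in the same central region, was at 7.97, 5.69 and 10.3 ppm in WT and at 3.44, 5.68 and 4.34 ppm in ATF-4OE (log2 fold change −0.70 ± 0.31, adjusted p of 0.125 in limma). The second WT and the second ATF-4OE libraries of *syp-2* were nearly equal, so its groups were separated by the smallest margin. In ATF-4OE all 3 libraries of *htp-3* and of *syp-1* were below 5 ppm, so both passed the filter on low values through the other genotypes.

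**Figure D2:**
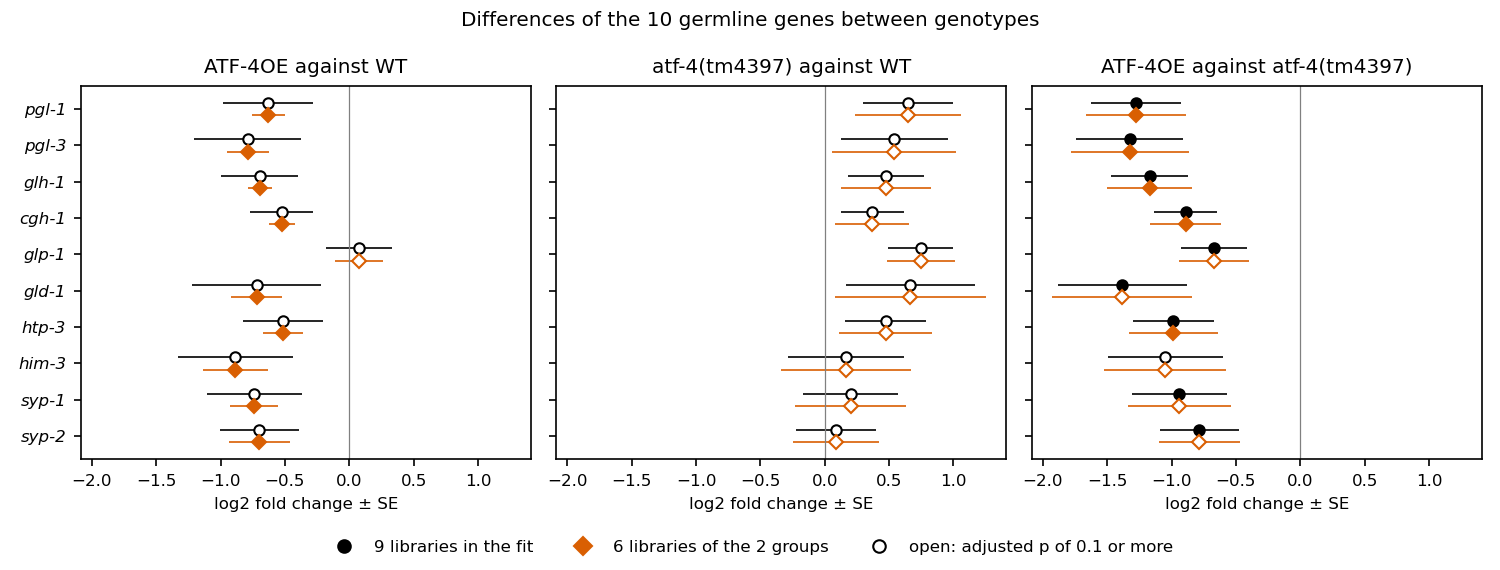
Log2 fold change ± SE (horizontal axis, on the log2(ppm + 1) scale) of each gene in the 3 comparisons, from a fit of all 9 libraries (circles) and of the 6 libraries of the pair of genotypes (diamonds). Filled symbols passed at an adjusted p under 0.1: 0 of 10 circles and 9 of 10 diamonds for ATF-4OE against WT, 0 for *atf-4(tm4397)* against WT, and 9 circles and 5 diamonds for ATF-4OE against *atf-4(tm4397)*.

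The deletion mutant was compared with WT to ask what ATF-4 does at its normal level. None of the 10 genes passed (limma, 9 libraries, adjusted p from 0.461 to 0.936, 1 gene, *glp-1*, at an unadjusted p under 0.05), in a comparison in which 0.0354% of all genes passed as higher and 0.0177% as lower. The mutant means were 10.6% (*syp-2*) to 103% (*gld-1*) above the WT means, but the 3 mutant libraries stood on both sides of WT. The first lay below every WT library for 9 genes, the second above every WT library for all 10, and the third above every WT library for 7 and within the WT range for 3 (*him-3*, *syp-1* and *syp-2*). The share of all genes outside the WT range in each of these libraries was not counted. The counts are therefore not shown to be particular to the set.

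Among the germ granule and helicase genes, *pgl-1* was at 25.6, 86.96 and 53.5 ppm in the mutant (log2 fold change against WT 0.65 ± 0.35, limma adjusted p of 0.51), and *glh-1* at 64.8, 177.8 and 134.3 ppm (0.48 ± 0.30, adjusted p of 0.555). *pgl-3* was at 6.98, 31.7 and 14.8 ppm and *cgh-1* at 48.7, 112.2 and 74.1 ppm. The mutant range enclosed the whole WT range for these 4 genes and for *gld-1*, *htp-3*, *him-3*, *syp-1* and *syp-2*, that is for 9 of the 10. The share of all genes with such a range was not counted. *gld-1* was at 11.5, 66.9 and 24.5 ppm, the widest relative spread of the set within a genotype (coefficient of variation 84.6%).

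Among the chromosome genes *htp-3* was at 4.90, 15.3 and 9.48 ppm in the mutant, *him-3* at 7.23, 32.5 and 13.95 ppm, *syp-1* at 4.17, 16.1 and 8.54 ppm and *syp-2* at 5.05, 12.5 and 8.91 ppm. Without the second mutant library the log2 fold changes of *him-3*, *syp-1* and *syp-2* against WT turned negative (−0.37, −0.23 and −0.18). Without the first mutant library *pgl-1* and *glh-1* passed as higher than WT, in a fit in which 0.851% of all genes passed as higher.

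*glp-1* again stood apart. It was at 9.47, 14.4 and 20.0 ppm in *atf-4(tm4397)*, above every WT library in all 3, and was the single gene of the set whose mutant and WT libraries did not overlap (6.07% of all genes were higher without overlap). Its log2 fold change was 0.75 ± 0.25, with a limma adjusted p of 0.461. It was also the single gene whose highest library was the third mutant library rather than the second.

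ATF-4OE was also set directly against *atf-4(tm4397)*, the widest contrast in *atf-4* mRNA level. Here 9 of the 10 genes fell (limma, 9 libraries, adjusted p from 0.0208 to 0.0964; 13.8% of all genes passed as lower), and *him-3* did not pass (log2 fold change −1.05 ± 0.45, adjusted p of 0.119). *glh-1* fell by 1.17 ± 0.30 on the log2 scale, *pgl-1* by 1.28 ± 0.35, *cgh-1* by 0.89 ± 0.25, *pgl-3* by 1.33 ± 0.42 and *htp-3* by 0.99 ± 0.31. *gld-1* fell by 1.39 ± 0.50 with an adjusted p of 0.0754, *glp-1* by 0.67 ± 0.25 (adjusted p of 0.0852), *syp-1* by 0.94 ± 0.37 and *syp-2* by 0.79 ± 0.31. *pgl-1*, *pgl-3*, *glh-1* and *gld-1*, 4 of the 10, were also beyond the study's limit of 1 on the log2 scale, as were 2.57% of all genes in that direction.

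The libraries of the 2 genotypes were separate for 6 of the 10 genes (*pgl-1*, *pgl-3*, *glh-1*, *cgh-1*, *gld-1* and *htp-3*; 16.8% of all genes were lower without overlap). The first mutant library overlapped ATF-4OE for *glp-1*, *him-3*, *syp-1* and *syp-2*. With the replicate number as a block 6 genes passed (9.92% of all genes), and *glp-1* (0.126), *syp-1* (0.108) and *syp-2* (0.112) lost their limma call. The number that passed was 4 without the second mutant library (*pgl-1*, *pgl-3*, *glh-1* and *cgh-1*; 6.78% of all genes), 5 without the third (11.8%), 3 without the first ATF-4OE library (7.67%) and 5 without the third (9.02%). It was 5 in a fit of the 6 libraries alone (10.1%) and 10 without the first mutant library (18.7%). *pgl-1*, *glh-1* and *cgh-1* passed in every fit that left out 1 library. This comparison shares its ATF-4OE libraries with the comparison against WT and its mutant libraries with the comparison above, so the 3 are not independent.

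The genes of the set moved together across libraries. Over the 9 libraries, which differ in genotype and depth, the Pearson correlation of each gene's log2(ppm + 1) with the mean of the other 9 genes was 0.994 for *cgh-1*, 0.989 for *pgl-3*, 0.984 for *htp-3*, 0.976 for *gld-1*, 0.974 for *pgl-1*, 0.971 for *glh-1*, 0.946 for *syp-1*, 0.917 for *him-3* and 0.878 for *syp-2*. It was 0.583 for *glp-1*. The 36 pairs of genes without *glp-1* correlated at 0.813 to 0.991 and the 9 pairs with *glp-1* at 0.342 to 0.723. The second mutant library was the highest for 9 genes, and the lowest was the first ATF-4OE library for 7 genes and the second for 3, so a few libraries carry much of these values. Of 11277 other genes tested, 320 (2.84%) correlated above 0.9 with the mean of the set.

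The genes with the closest pattern to the mean of the set, by the same correlation over 9 libraries, were Y54G11A.3 (0.992), WBGene00018862 (0.99), *wago-1* (0.988), *ucr-2.3* (0.988) and *deps-1* (0.987). *wago-1* encodes an Argonaute that binds small RNAs in germ granules, and *deps-1* encodes a P granule component. Both were also in the list of other germ granule genes.

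Ratios of 2 genes within a library put a number on what stayed together. The ratio of *glh-1* to *pgl-1* was between 2.04 and 2.94 in all 9 libraries, and that of *glh-1* to *cgh-1* between 1.24 and 1.81. *pgl-1* to *pgl-3* ran from 2.74 to 4.82, *syp-1* to *syp-2* from 0.685 to 1.29 and *him-3* to *htp-3* from 1.37 to 3.20. *gld-1* to *glp-1* was 2.14, 1.44 and 2.92 in WT, 1.21, 4.65 and 1.22 in *atf-4(tm4397)* and 0.885, 1.63 and 1.04 in ATF-4OE, a 5.25-fold span. Its WT and ATF-4OE values overlapped, and the second mutant library alone stood far above the rest.

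**Figure D3:**
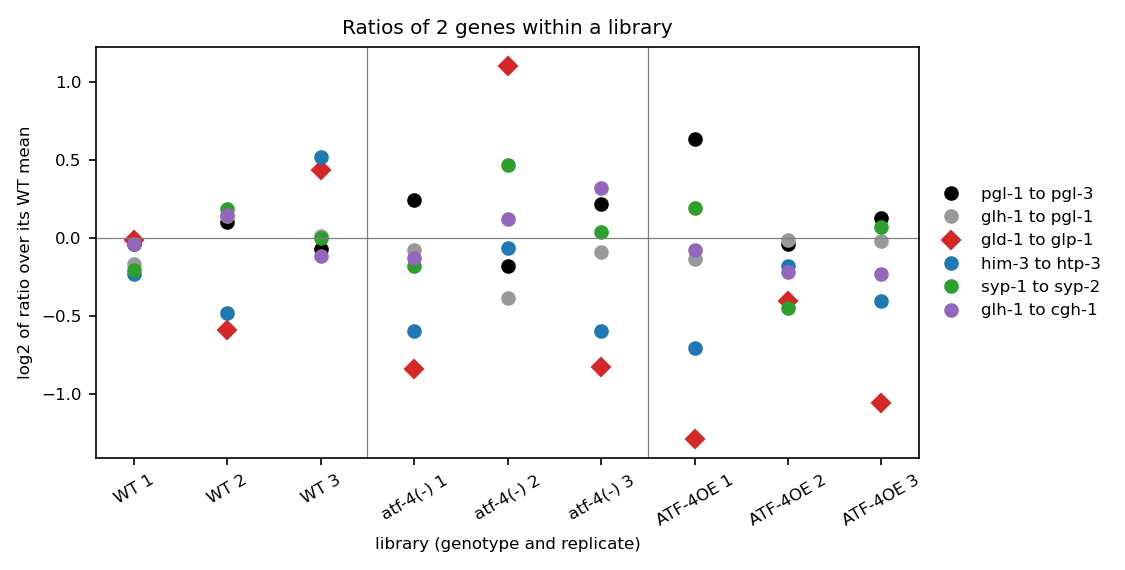
Ratio of 2 genes of the set within each library, as the log2 of that ratio over its WT mean (vertical axis), for the 9 libraries. The red diamonds, *gld-1* to *glp-1*, span 5.25-fold, while the grey points, *glh-1* to *pgl-1*, span 1.44-fold.

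Other genes of the same processes, from lists of genes by function, were read beside the set. In ATF-4OE against WT, 4 of 20 other germ granule genes passed and all 4 fell: *csr-1*, an Argonaute of the germline 22G small-RNA pathway (−0.93 on the log2 scale, limma adjusted p of 0.0103), *mut-7*, a factor of small-RNA amplification (−0.57, adjusted p of 0.0229), *ekl-1* (−0.33) and *ife-1*, a cap-binding protein that binds PGL-1 (−0.43), the latter 2 with a sign that turned when libraries were scaled to other germline genes. The 20 genes are themselves among those that set that scale, so such turns of sign are partly built in. *csr-1* and *mut-7* passed whichever library was left out, while *ekl-1* lost its call without any of 4 libraries (adjusted p up to 0.139) or with the replicate block (0.111), and *ife-1* without any of 6 (up to 0.199). The median of the 20 was −0.44, beside 0.01 over all genes tested. *csr-1* was at 56.1, 55.4 and 68.8 ppm in WT and at 27.7, 30.4 and 35.1 ppm in ATF-4OE, with no overlap. All ATF-4OE libraries lay below all WT libraries for 18 of the 20, beside 23% of all genes tested, and the 4 that passed as lower are to be read beside 14.4% of all genes.

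Of 18 other axis, synaptonemal complex and pairing genes, 2 passed and both fell: *pch-2*, an ATPase that acts on HORMA-domain proteins (−0.52, limma adjusted p of 0.0521), and *syp-6*, a further central-region component (−0.71, adjusted p of 0.0971). Their median was −0.51 and 16 of 18 had all ATF-4OE libraries below WT (23% of all genes), while the 2 of 18 that passed were a smaller share than the 14.4% of all genes that passed as lower. The call of *pch-2* was lost without any of 3 libraries (limma adjusted p up to 0.163) and that of *syp-6* without any of 7 (up to 0.24) or with the block (0.143). Of 18 recombination genes 1 passed, *rad-51*, the strand-exchange recombinase (−0.58, limma adjusted p of 0.0123), again below the share of all genes, with a median of −0.34. None of 14 germ cell mRNA regulators passed in this limma fit (1 at an unadjusted p under 0.05), at a median of −0.32, while 6 passed as lower and 1 as higher in the fit of 6 libraries. That fit counted 15 of 20, 11 of 18 and 9 of 18 as lower in the lists above, where 17.6% of all genes passed as lower.

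Around *glp-1*, 3 of 14 genes of its Notch pathway passed, in both directions. In this comparison with WT 22.1% of all genes passed as higher and 14.4% as lower. *lst-1*, a target of GLP-1 signalling in germline stem cells, rose (0.58, limma adjusted p of 0.0132; 11.2, 9.91 and 10.9 ppm in WT and 17.2, 14.99 and 16.97 ppm in ATF-4OE). *sup-17* and *adm-4*, both encoding ADAM-family metalloproteases, rose (0.46, adjusted p of 0.0361) and fell (−0.63, adjusted p of 0.00367), and the median of the 14 was 0.06. *sup-17* lost its call without any of 3 libraries (limma adjusted p up to 0.139). Around *cgh-1*, 1 of 14 genes of its mRNA-protein partners and of decapping passed, *cey-1*, a Y-box protein gene, which rose (0.44, limma adjusted p of 0.0212), at a median of 0.00. In the fit of 6 libraries *cey-1* passed as higher again. There *cey-2* (−0.67, limma adjusted p of 0.0446) and *cey-3* (−0.46, adjusted p of 0.0543) passed as lower, as did 17.6% of all genes. Against *atf-4(tm4397)*, in the fit of 9 libraries, 2 of 14 genes of each list fell and none rose, with medians of 0.02 and −0.11. That is a share near the 13.8% of all genes that passed as lower there, while 19.8% passed as higher.

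Against *atf-4(tm4397)*, 14 of 20 other germ granule genes, 12 of 18 axis, synaptonemal and pairing genes, 8 of 18 recombination genes and 8 of 14 mRNA regulators fell in ATF-4OE (limma, 9 libraries), and none rose, where 13.8% of all genes passed as lower. Lists outside these moved in the same comparison as well: 17 of 20 cell cycle and DNA replication genes and 5 of 9 intestine genes fell, and 12 of 12 neuron genes, 5 of 10 body wall muscle genes, 3 of 9 epidermis genes and 3 of 7 somatic gonad genes rose, where 19.8% of all genes passed as higher. In *atf-4(tm4397)* against WT none of the 197 genes of all lists passed in that fit, and 20 were at an unadjusted p under 0.05. The calls against *atf-4(tm4397)* were fewer in a fit of the 6 ATF-4OE and mutant libraries alone. There 8 of 20 other germ granule genes, 4 of 18 axis, synaptonemal and pairing genes, 5 of 18 recombination genes and 6 of 14 mRNA regulators passed as lower. In that fit of 6 libraries 10.1% of all genes passed as lower.

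Markers of gametes varied between libraries of one genotype. Summed levels of 20 sperm genes of the table were 46.6, 12.8 and 158.6 ppm in WT, 17.01, 286.4 and 13.9 ppm in *atf-4(tm4397)* and 12.4, 27.5 and 22.2 ppm in ATF-4OE. The second mutant library, highest for 9 genes of the set, was the highest for sperm genes as well, and the third WT library, highest of WT for *him-3*, *syp-1*, *syp-2* and *gld-1*, was the next. At most 3 of the 20 were at 0 in any library. Their part in these values was not tested. Of the sperm genes 1 of 18 tested fell in ATF-4OE against WT, *spe-4* (−1.45, limma adjusted p of 0.0727; 0.11 with the block, and up to 0.234 without any of 4 libraries). In that comparison 14.4% of all genes passed as lower and 22.1% as higher. Summed oocyte and eggshell genes were at 124.4 to 140.2 ppm in WT, 105.2 to 229.8 ppm in the mutant and 123.6 to 170.0 ppm in ATF-4OE, ranges that overlap. Of 14 tested 1 passed against WT: *lin-41*, a TRIM-NHL protein gene needed in growing oocytes and in larval epidermis, which rose by 1.59 (limma adjusted p of 0.00403). Of the 14, 12 had a negative log2 fold change against WT, and the median was −0.49. All ATF-4OE libraries lay below all WT libraries for 8 of the 14 and above them for 1, beside 23% of all genes tested that were lower. In the fit of 6 libraries 3 passed as lower and 1 as higher, where 17.6% of all genes passed as lower.

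**Figure D4:**
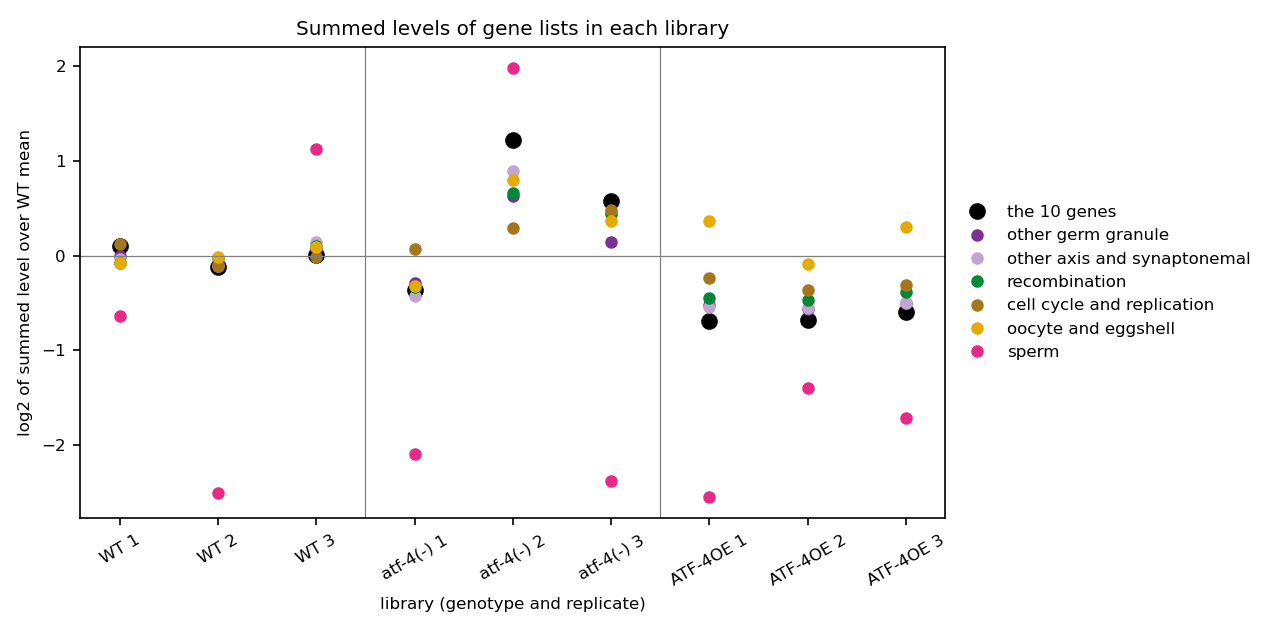
Summed level of the 10 genes (large black points) and of 6 gene lists in each library, as the log2 of the sum over its WT mean (vertical axis). The 3 ATF-4OE libraries of the 10 genes, at 149.6 to 159.6 ppm, lie below the WT libraries, at 222.9 to 259.3 ppm; sperm genes (pink) spread most, with the second mutant library at 286.4 ppm.

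Somatic lists differed between the same libraries. In ATF-4OE against WT, 11 of 12 neuron genes, 6 of 10 body wall muscle genes and 5 of 9 epidermis genes rose, the last including *rol-6* itself, and 6 of 9 intestine genes fell (limma; 22.1% of all genes passed as higher and 14.4% as lower). Of 7 somatic gonad genes, *lim-7* (0.73) and *fos-1* (0.74) rose and *fkh-6* fell (−1.07, with limma adjusted p of 0.0654, of 0.101 with the block and of up to 0.191 without any of 6 libraries). Cell cycle and DNA replication genes, which dividing germ cells and larval somatic cells both use, summed to 497.2 to 584.5 ppm in WT, 562.8 to 751.1 ppm in the mutant and 416.7 to 455.9 ppm in ATF-4OE. Of 20 of them 3 fell against WT, a share near the 14.4% of all genes that passed as lower: *cye-1*, encoding cyclin E (−0.61, limma adjusted p of 0.0443), *rnr-1*, a ribonucleotide reductase subunit (−0.63, adjusted p of 0.0451), and *mcm-5*, a replicative helicase subunit (−0.36, adjusted p of 0.0747), whose sign turned when libraries were scaled to other germline genes. *cye-1* and *rnr-1* each lost their call without any of 3 libraries (limma adjusted p up to 0.107 and 0.157) and *mcm-5* without any of 5 (up to 0.231) or with the block (0.109). The part of these lists in the levels of the 10 genes was not tested.

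Levels relative to other germline genes were obtained by scaling each library to the median ratio over 70 other germ granule, axis, recombination and mRNA regulator genes. The scaling factors were 1.02 to 1.09 in WT, 0.829, 1.86 and 1.48 in *atf-4(tm4397)* and 0.708 to 0.744 in ATF-4OE. On this scale the log2 fold changes of ATF-4OE against WT ran from −0.41 (*him-3*) to 0.55 (*glp-1*, limma adjusted p of 0.118) and none of the 10 genes passed. The log2 fold change stayed below 0 for 9 of the 10, and the median of the 10 was −0.20. *cgh-1* was at 59.1, 51.7 and 53.0 in WT and at 52.8, 54.6 and 55.8 in ATF-4OE on the rescaled ppm, and its groups then overlapped. *syp-1* was at 6.22, 5.945 and 8.76 in WT and at 5.07, 5.49 and 5.71 in ATF-4OE, still without overlap. *glp-1* was at 8.48, 8.38 and 6.13 in WT and at 12.4, 9.12 and 13.8 in ATF-4OE, above every WT library. The share of all genes separated in this way on the rescaled ppm was not counted. *csr-1*, *mut-7*, *pch-2* and *rad-51* are among the 70 genes that set this scale, which draws those genes as a group towards no difference. That they did not pass on it (limma adjusted p of 0.271 to 0.851) is therefore partly built in. *lst-1*, which is outside the 70, did pass (limma adjusted p of 0.00335). The same scaling moved the median of all genes to 0.51, so 37.9% of all genes then passed as higher and 1.9% as lower. The 0.55 of *glp-1* lies near that median, so its rise on this scale is not particular to it.

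Against *atf-4(tm4397)*, scaled in this way, 1 of the 10 genes passed as lower, *pgl-3* (limma adjusted p of 0.0883), where 0.877% of all genes passed as lower, 68.2% passed as higher and the median of all genes was 0.77. *glp-1* turned to 0.11. The second mutant library of *gld-1* stayed the highest, at 36.0 against 11 to 18.1 in the other libraries, while *cgh-1* ran from 50.2 to 60.5 over all 9.

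**Figure D5:**
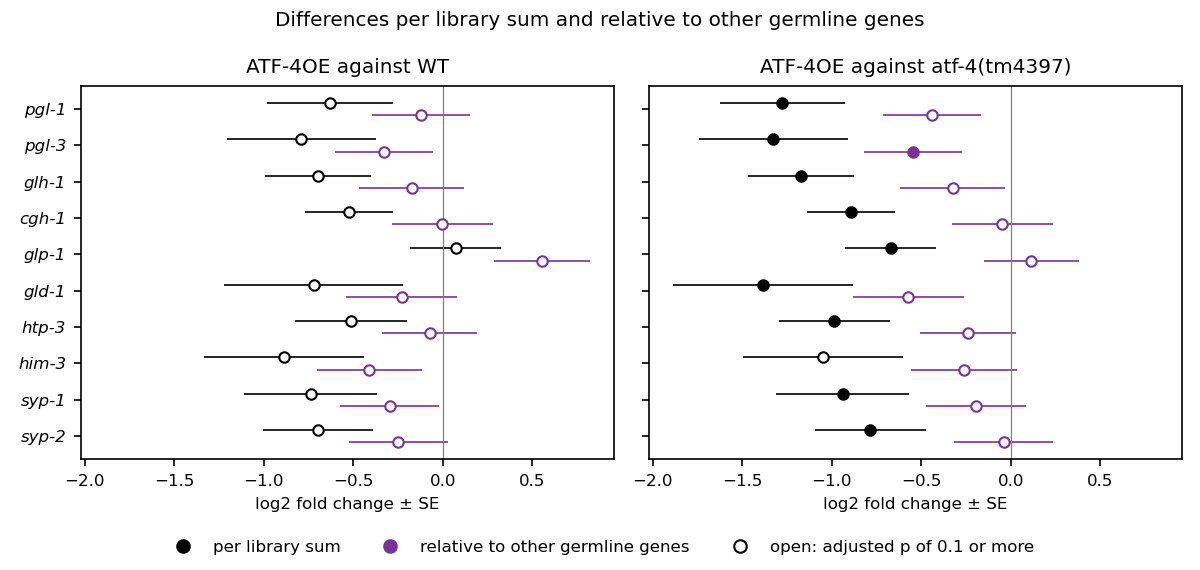
Log2 fold change ± SE of each gene per library sum (black) and relative to 70 other germline genes (purple), for ATF-4OE against WT and against *atf-4(tm4397)*. Filled symbols passed at an adjusted p under 0.1; relative to the other germline genes, 1 gene, *pgl-3* against *atf-4(tm4397)*, is filled, and *glp-1* lies farthest to the right in both panels.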

How the data were processed

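Poly(A) RNA of 9 samples was sequenced in 1 lane as single 50 bp reads. Per the labels and the study's methods the authors used STAR 2.4.0j for alignment to WBcel235 and featureCounts for counting, discarded genes of low count and computed RPKM. The deposited sheets hold RPKM for 46748 genes and, for 14218 of them, a score per library: RPKM centred on the library's mean and divided by its standard deviation, on a linear scale. Both hold the same libraries to within 4.99e-07. A sheet of genes the authors picked (9 per-sample columns) and one of term enrichments, with the authors' p-values, were not used. The 10 genes and all lists were chosen with earlier results of these data known.

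Each library of the scaled sheet was shifted to a lowest value of 0 and rescaled to a sum of 1000000 (ppm, per length and proportional to RPKM). log2(ppm + 1) of 11287 genes at 5 ppm or more in at least 1 library was fitted with limma 3.58.1 (R 4.3.3, trended variance, all 9 libraries, two-sided, Benjamini-Hochberg over all genes). A gene passed, and is said to have risen or fallen, at an adjusted p under 0.1. Named genes were the 10, *atf-4* and *rol-6*, up to 4 tested genes of each list with the smallest adjusted p against WT, and the 5 genes closest in pattern. Annotation was Ensembl release 115, in which 14092 of the gene identifiers were found. The fit was tested on simulated data with independent noise and, for each gene, the same spread in all libraries. That setting does not cover the wider spread of the 10 genes in the mutant libraries.

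Depth was read from the RPKM of genes with 1 read. Only 40.2 to 49.8% of values below 20 reads came out whole within 0.02 read, so no count model was run. The labels say that a replicate number marks strains cultured together, so numbers pair the samples. The deviations of same-numbered libraries from their group means correlated at −0.68 to 0.31 over genes. Alternatives were other pseudocounts, filters, scalings, library weights, the replicate block, the pair of groups alone, the RPKM sheet's own names, and leaving out each library.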

Additional observations from a re-analysis of the deposited data

How the results depend on the processing

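Of 11287 genes tested, those passing numbered 2493 higher and 1629 lower for ATF-4OE against WT, 4 and 2 for *atf-4(tm4397)* against WT, and 2235 and 1555 for ATF-4OE against *atf-4(tm4397)*. Leaving out 1 library moved these counts to 1561 to 2681 and 1018 to 1925, to 1 to 96 and 2 to 32, and to 1479 to 2209 and 765 to 2107. With centred and scaled values in place of logs they were 1260 and 862 in the first comparison and 618 and 666 in the last, and relative to other germline genes 4273 and 214, then 7694 and 99. Library weights gave 2371 lower in the last. Under the RPKM sheet's own names 0 genes passed in any direction of the 3 comparisons.

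Of the 10 genes, the number lower in ATF-4OE than in WT, 0 in the main limma fit, was 9 with the pair of groups alone, 8 with library weights, 2 with median ratio scaling, 3 with a replicate block in which mutant replicates 2 and 3 were exchanged, and 0 to 8 when 1 library was left out. The number higher in the mutant than in WT was 0 to 2 when 1 library was left out. The number lower in ATF-4OE than in the mutant, 9, was 2 with centred and scaled values, 1 relative to other germline genes, 5 with the pair of groups alone, 0 under the RPKM sheet's own names, and 3 to 10 when 1 library was left out. The replicate block left 6 of these 9 and changed no other call of the 10 genes, and of the other named genes it ended the calls of *ekl-1*, *syp-6*, *mcm-5*, *spe-4* and *fkh-6* against WT. The exchange was run because WT replicates 2 and 3 deviated with mutant replicates 3 and 2 (correlations 0.68 and 0.76) and against their own numbers (−0.68 and −0.62). It was therefore picked from these same data, so its 3 calls are partly built in. The cause of the other changes in these counts was not tested, except that fits with fewer libraries estimate the spread from those libraries only.

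Of 630 alternative fold changes of the 10 genes, 30 changed sign. Under the RPKM sheet's own names ATF-4OE minus WT was 0.38 for *pgl-1*, 0.64 for *pgl-3*, 0.38 for *glh-1*, 0.37 for *cgh-1*, 0.91 for *gld-1*, 0.42 for *htp-3*, 0.91 for *him-3*, 0.74 for *syp-1* and 0.53 for *syp-2*, and ATF-4OE minus mutant was 0.24, 0.36, 0.10, 0.25, 0.65, 0.16, 0.57, 0.47 and 0.26 in the same order. Under those names *rol-6* was at −0.19 against WT, *csr-1* at 0.44, *mut-7* at 0.089, *ekl-1* at 0.032, *ife-1* at 0.16, *syp-6* at 0.36, *rad-51* at 0.18, *cye-1* at 0.19, *rnr-1* at 0.073, *sup-17* at −0.052, *cey-1* at −0.012, *lin-41* at −0.35, *spe-4* at 0.77 and *lim-7* at −0.024. On the centred and scaled values *htp-3* in ATF-4OE minus WT was 0.00014 standard deviations. Relative to other germline genes, mutant minus WT was −0.15 for *him-3*, −0.10 for *syp-1* and −0.21 for *syp-2*, ATF-4OE minus mutant was 0.11 for *glp-1*, and ATF-4OE minus WT was 0.18 for *ekl-1*, 0.10 for *ife-1* and 0.15 for *mcm-5*. Of these, *ekl-1* and *ife-1* are among the genes that set that scale. When 1 library was left out, *glp-1* in ATF-4OE minus WT ran from −0.053 to 0.24, with negative values without WT replicate 3 (−0.036) and ATF-4OE replicate 3. In mutant minus WT *him-3* ran from −0.37 to 0.65, *syp-1* from −0.23 to 0.64 and *syp-2* from −0.18 to 0.40, the lowest without mutant replicate 2 and the highest without mutant replicate 1. Without WT replicate 2 *him-3* and *syp-2* were at −0.044 and −0.11. With about 101 reads in its lowest library, *syp-2* was the gene most limited by depth.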
